A study of Caenorhabditis elegans with 34 samples.

Results

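The lin-4p::GFP strain was sorted 6 times by fluorescence, and the libraries of sorts 1 and 2 differed from those of sorts 3 to 6 in many genes. The 12 lin-4p::GFP libraries, of 34 in the series, are described here, 4 of sorts 1-2 and 8 of sorts 3-6, each sort with 1 high and 1 low library. The division was chosen from the data, because the sorts fall on opposite sides of the second principal component of the same libraries. The difference between the sort sets is therefore given as a description, with no p-value, and supports nothing further. On that component the 4 libraries of sorts 1-2 lay between -45.0 and -14.8 and the 8 of sorts 3-6 between 9.28 and 43.4. The library of sorts 1-2 nearest to the division stood at -14.8 and that of sorts 3-6 at 9.28, while the 22 libraries of the other strains lay between -22.9 and 7.84.

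All groups came from whole Caenorhabditis elegans hermaphrodites mutant for spe-9, a sperm gene needed for fertilization, with an allele that makes the animals sterile at the restrictive temperature. Animals were grown on NGM plates with E. coli OP50 at 25 °C, and on day 5 a microfluidic device kept the 10% brightest (high) and the 10% dimmest (low) individuals of each population. The lin-4p::GFP transgene places GFP under the promoter of the microRNA lin-4 and is seen mainly in the posterior intestine, and per the labels high fluorescence marks animals predicted to be long-lived. The other 3 biomarkers were mir-243p::GFP, mir-240/786p::GFP and red autofluorescence. Each library pools the animals recovered from one sort, all animals of the strain carry the reporter, and the labels give no date, plate or animal number for any sort. The study accounted for a sequencing batch that the labels do not give, so that batch, culture and sort set cannot be told apart.

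At this age the hermaphrodite gonad still makes oocytes, and the intestine makes vitellogenins, the yolk lipoproteins that oocytes take up through the receptor RME-2. The germline accounts for a large part of the RNA of the adult, and its granules hold small-RNA Argonautes and helicases. Small heat shock proteins of the HSP-16 family are almost silent in unstressed young animals and are induced by heat and other stress that damages proteins. In whole animals a change of a tissue's share of the body and a change of RNA per cell cannot be told apart.

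Library totals of the 12 libraries ranged from 15.8 to 24.2 M counts. The mean total of a sort was 20.9 M in sorts 1-2 and 18.8 M in sorts 3-6, a difference of 2.03 M beside an SD of 1.88 M among sorts 3-6 (n = 4). Without sort 2 the difference was 0.0776 M, and without sort 1 it was 3.98 M. Of 20223 features, 14245 passed the filter of at least 5 counts in at least 26 of the 34 libraries and were tested. Of these, 10.2% were set apart, defined as both libraries of sorts 1-2 lying above, or both below, all 4 libraries of sorts 3-6 in the high and again in the low libraries, with a fitted difference of at least 1 on the log2 scale. Higher in sorts 1-2 were 1012 genes (7.10% of those tested) and lower were 437 (3.07%). Irrespective of size, 15.2% of genes did not overlap and were higher in sorts 1-2, and 17.3% were lower. Just inside the limit were nhr-21 (1.0004) and apr-1 (-1.0004), and just outside it Y71F9AL.7 (0.999) and H11L12.1 (-0.9998). All differences below are sorts 1-2 minus sorts 3-6 on the log2 scale with their standard error. They come from 1 fit over the 12 libraries with high or low as a term. That fit counts the high and low library of one sort as separate, so the standard errors leave out their pairing and may be too small. Levels are in CPM, the counts of a gene scaled to a common library size after TMM normalisation.

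The median difference over all tested genes was 0.17. It was 0.14 with the size factors of DESeq2 and 0.51 when only library totals were used. On library totals 2267 genes were set apart as higher and 101 as lower, so the balance between the directions depends on the scaling and the differences of single lists are best read against 0.17. Distances between sorts describe the size of the division, which was itself chosen on these libraries. Between 2 sorts the root mean square difference of log2 CPM over all tested genes was 0.698 to 0.908 across the sets (8 pairs), against 0.454 within sorts 1-2 (1 pair), 0.383 to 0.554 within sorts 3-6 (6 pairs) and 0.315 to 0.454 within the other strains (15 pairs).

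**Figure D1:**
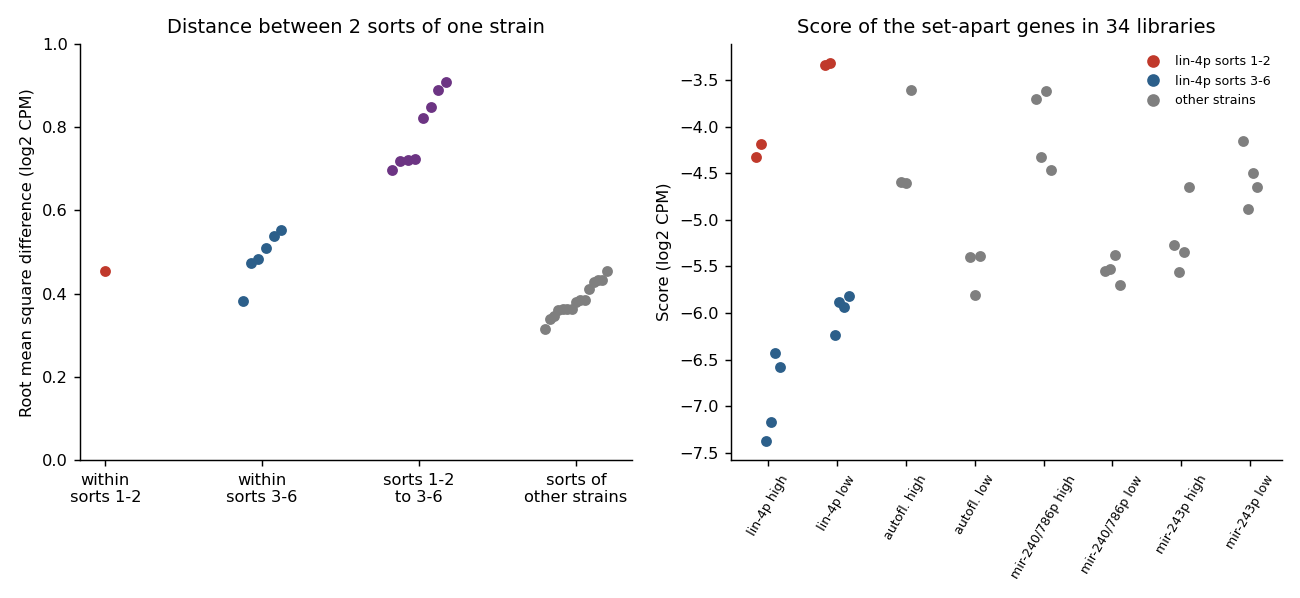
Left, root mean square difference of log2 CPM between every 2 sorts of one strain, with 1 point per pair of sorts. Right, score of the set-apart genes (mean log2 CPM of the 1012 genes higher in sorts 1-2 minus that of the 437 lower) in each of the 34 libraries. All 8 pairs across the sets lie above 0.69, and no other pair exceeds 0.56.

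The score in that plot separates the sets by construction, since its genes were chosen for not overlapping between them, and it is given as a description. Among predicted long-lived libraries, it was -4.33 and -4.19 in the high libraries of sorts 1-2, -7.37 to -6.43 in the 4 high libraries of sorts 3-6 and -5.80 to -4.65 in 11 libraries of the other strains. Among predicted short-lived libraries, it was -3.34 and -3.32 in the low libraries of sorts 1-2, -6.24 to -5.82 in those of sorts 3-6 and -4.89 to -3.60 in the other 11. With this score the other strains lay between the sets in both classes. With the 78 genes at a difference of at least 2 they did not. The score was then -4.89 and -4.74 in the high libraries of sorts 1 and 2, and a predicted long-lived library of mir-243p::GFP stood at -4.64. In the low libraries of sorts 1 and 2 that score was -2.404 and -1.06, and predicted short-lived libraries of mir-240/786p::GFP and autofluorescence stood at -1.79 and -1.92. With high and low averaged, the 1012 genes had a median of 0.42 in sorts 1-2 and -0.94 in sorts 3-6 relative to the mean of the other strains, and the 437 genes had -0.64 and 0.57. Between the sorts of the other strains the median SD was 0.282 for the 1012 genes, 0.197 for the 437 and 0.189 over all genes. The 1012 genes had a median level of 2.69 CPM and the 437 genes one of 163 CPM, against 15.01 CPM over all genes.

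Yolk genes had the lowest median of the lists examined. All 6 vitellogenin genes were set apart as lower in sorts 1-2, with a median of -2.77 and a range of -3.11 to -2.22. The libraries of vit-2 (chromosome X, 5101042 to 5106169, WBcel235), which encodes a major yolk protein, held 10781 and 6324 CPM in the high libraries of sorts 1 and 2 and 40360, 29062, 26842 and 28407 CPM in those of sorts 3 to 6. Low libraries held 4147 and 645 CPM in sorts 1 and 2 and 18135, 14090, 15481 and 17522 CPM in sorts 3 to 6. The difference was -2.29 ± 0.43 (SE, 12 libraries), and the low library of sort 2 stood farther down than any other. In vit-6, another yolk precursor gene, the high libraries held 9328 and 5208 CPM against 25061 to 47120, and the low libraries 1778 and 292 CPM against 8927 to 12823.

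Vitellogenins took 3.53% and 2.298% of all counts in the high libraries of sorts 1 and 2 and 7.14% to 10.6% in those of sorts 3-6. In the low libraries the shares were 0.883% and 0.142% against 3.18% to 3.71%. In the other strains the share was 1.29% to 6.24% in predicted long-lived and 0.183% to 2.38% in predicted short-lived libraries, so both high and low libraries of sorts 3-6 exceeded the whole range of their class. The medians of the 6 genes relative to the mean of the other strains were 2.27 in sorts 3-6 and -0.86 in sorts 1-2. The genes vit-3, vit-4 and vit-2 overlap other annotated exons, and how reads shared between similar copies were counted is not given in the sources used here. High against low, tested with the sort set as a term, was past adjusted p 0.05 in all 6 genes and higher in high, from 1.23 for vit-2 to 2.32 for vit-3 (edgeR quasi-likelihood, Benjamini-Hochberg adjusted p = 0.000865 to 0.0223).

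Oocyte genes were lower as well. Of 20 genes of the oocyte and eggshell list, 6 were set apart as lower (30%, against 3.07% of all genes) and none as higher. Not overlapping and lower were 16 of the 20, against 17.3% of all genes, and the median was -0.68. The yolk receptor gene rme-2 held 552 and 441 CPM in the high libraries of sorts 1 and 2 against 1537, 1331, 1126 and 1203 CPM, and 370 and 279 CPM in the low libraries against 1065, 769, 1071 and 885 CPM, a difference of -1.47 ± 0.14. The sets did not overlap even across fluorescence levels, since the highest library of sorts 1-2 was below the lowest of sorts 3-6. For cbd-1, a chitin-binding eggshell protein, the difference was -1.92 ± 0.19, for the oocyte regulator lin-41 -1.83 ± 0.11 and for the eggshell proteoglycan cpg-1 -1.62 ± 0.15. The chitin synthase chs-1 stood at -1.45 ± 0.14 and the translational repressor gld-1 at -1.28 ± 0.10. By contrast cpg-3 (0.13 ± 0.14), pos-1 (-0.07 ± 0.11) and perm-2 (-0.23 ± 0.22) overlapped between the sets.

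Germ granule genes were lower throughout. Of 12 members, 10 were set apart as lower (83.3%, against 3.07% of all genes) and all 12 did not overlap, with a median of -1.13. The gene wago-4, an Argonaute of inherited small RNAs, held 84.7 and 71.9 CPM in the high and 67.5 and 57.03 CPM in the low libraries of sorts 1 and 2. In sorts 3 to 6 it held 349, 297, 215 and 265 CPM when high and 250.5, 157, 240 and 234.7 CPM when low, a difference of -1.84 ± 0.15. The helicase gene znfx-1 stood at -1.56 ± 0.12, the granule scaffold pgl-3 at -1.26 ± 0.15 and the Vasa-related glh-4 at -1.19 ± 0.12. Closest to 0 were mut-16 (-0.94 ± 0.11) and the Piwi gene prg-1 (-0.69 ± 0.14). Among other small-RNA genes, hrde-1, a nuclear Argonaute of the germline (-1.53 ± 0.13), and the RNA-dependent RNA polymerase ego-1 (-1.29 ± 0.11) were set apart, 10 of 12 did not overlap and were lower, and the median was -0.77.

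Meiotic genes had a median of -0.47. Not overlapping and lower were 15 of 22, against 17.3% of all genes, and 3 were set apart as lower (13.6%, against 3.07%). They were the cohesin gene rec-8 (-1.21 ± 0.15), the crossover gene msh-5 (-1.12 ± 0.13) and the chromosome axis gene htp-3 (-1.09 ± 0.12). Genes of DNA replication and the cell cycle had a median of -0.36. Of 22, 1 was set apart as lower (4.55%), the polymerase gene pole-1 (-1.28 ± 0.15). On library totals alone that list's median was -0.02, against 0.51 over all genes.

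The defining markers of each tissue were read as summed levels, on the scale of all 34 libraries. Germline markers (5 of 7 set apart as lower) summed to 886 to 1321 CPM in sorts 1-2 and 1744 to 3111 CPM in sorts 3-6, and those of oocytes to 3248 to 5537 against 5852 to 10311 CPM. Intestinal markers, of which vit-2 is one, summed to 8066 to 13686 CPM in the high libraries of sorts 1-2 against 29317 to 45328 CPM, and to 862 to 5054 CPM in the low libraries against 15557 to 19805 CPM. Most of each of these sums was vit-2, described above, so they are no separate measure of the intestine. Only vit-2 of the 9 intestinal markers was set apart. Markers of the spermatheca and gonadal sheath summed to 519 to 946 against 1066 to 1522 CPM. These 7 genes were divided, with 1 set apart as higher and 1 as lower, at a median difference of -0.25. Neuronal markers overlapped in the high libraries (338 to 375 against 343 to 417 CPM) and were higher in the low libraries of sorts 1-2 (453 to 502 against 369 to 447 CPM). Body wall muscle markers overlapped in the high libraries (687 to 786 against 482 to 1054 CPM) and were lower in the low libraries of sorts 1-2 (176 to 189 against 349 to 783 CPM). Of these 6 markers 2 were set apart as lower (33.3%, against 3.07% of all genes), at a median of -1.29. With the trend on transcript length described below taken out, 0 of them and 1 of the 7 germline markers were set apart as lower. Those of the pharynx overlapped, with 20.05 to 38.3 against 17.3 to 51.6 CPM. Sperm markers were near the floor in both sets, 2.46 to 17.2 against 1.67 to 9.37 CPM for all 8 genes together. Early embryo markers summed to 25.8 to 38.6 and 17.03 to 41.1 CPM, and spe-9 itself was at 0.479 to 1.02 against 0.0711 to 0.886 CPM. The part of tissue shares in the differences above was not tested.

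**Figure D2:**
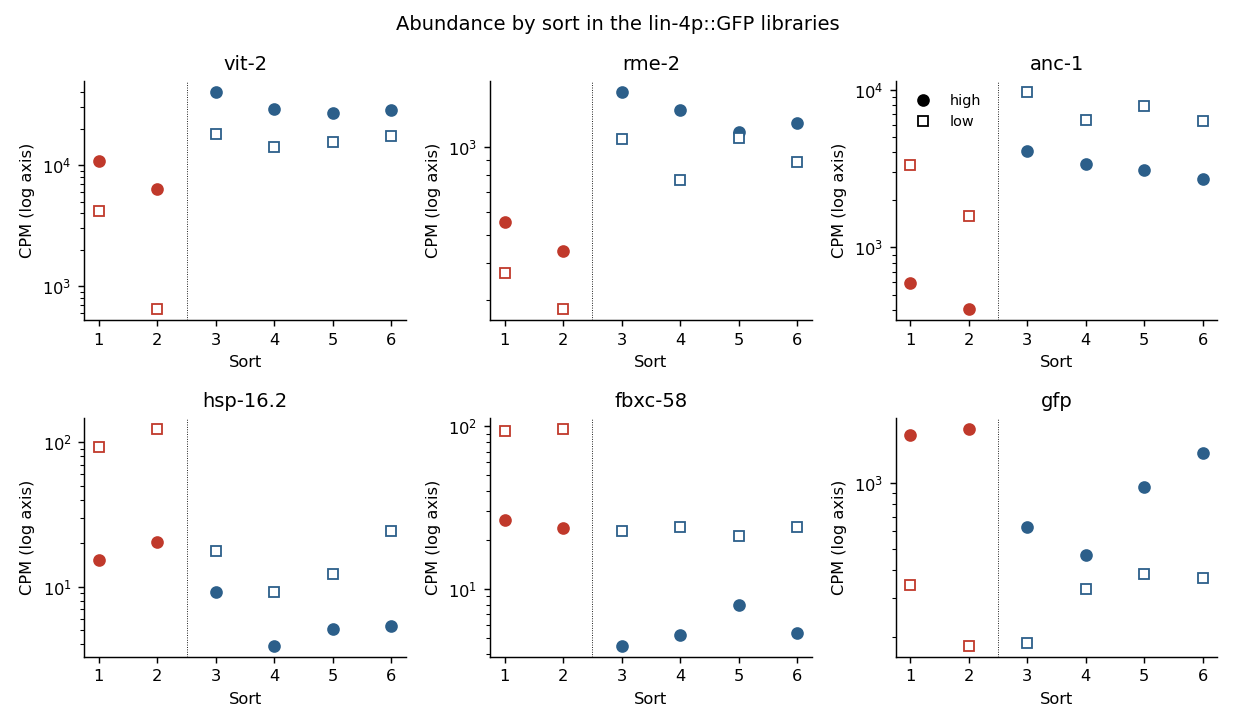
CPM (log axis) of 5 genes and of the gfp transgene in the 12 lin-4p::GFP libraries by sort. Filled circles are high and open squares low libraries, red sorts 1-2 and blue sorts 3-6, and the dotted line separates the sets. For vit-2, rme-2 and anc-1 the sets do not overlap within either level and sorts 1-2 are lower, and for hsp-16.2 and fbxc-58 they are higher.

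Heat shock genes led the higher end. Of the 12 genes with the largest positive difference among those with at least 5 CPM, 6 were small heat shock genes of the HSP-16 family, or 4 of 10 with near-identical pairs counted once. The gene hsp-16.2 (chromosome V, 1804334 to 1804957) held 15.3 and 20.3 CPM in the high libraries of sorts 1 and 2 against 9.19, 3.89, 5.07 and 5.37 CPM in sorts 3 to 6. When low, it held 93.3 and 125 CPM against 17.6, 9.22, 12.2 and 24.3 CPM, a difference of 2.25 ± 0.28. Its neighbour hsp-16.41 (1805178 to 1805875) stood at 2.21 ± 0.30. The second cluster of the family on the same chromosome holds hsp-16.1, hsp-16.11, hsp-16.48 and hsp-16.49 as near-identical pairs whose counts were almost the same within each pair, so the genes of a pair are uncertain and count once. For the pair hsp-16.48 and hsp-16.49 the low libraries held 261 and 435 CPM in sorts 1 and 2 (hsp-16.48) against 28.9 to 57.9 CPM, and the difference was 2.45 ± 0.25. For hsp-16.1 it was 2.28 ± 0.26.

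The inducible HSP70 genes followed. F44E5.4, whose neighbour F44E5.5 had almost the same counts, held 460 and 817 CPM in the low libraries of sorts 1 and 2 against 102 to 204 CPM, and 59.6 and 77.7 CPM in the high libraries against 19.4 to 39.7 CPM, a difference of 1.65 ± 0.23. The inducible hsp-70 stood at 1.57 ± 0.35. In all, 9 of the 26 genes of the heat shock list were set apart as higher (34.6%, against 7.10% of all genes) and none as lower. With near-identical pairs counted once 6 were higher, and the median of the list was 0.65. Constitutive chaperones were not among them. The HSP70 gene hsp-1 stood at -0.86 ± 0.19, the small heat shock gene sip-1, which is expressed in oocytes and embryos, at -0.90 ± 0.14, hsp-90 at -0.12 ± 0.14, and the regulator hsf-1 at -0.34 ± 0.12. Neither unfolded protein response list shared the direction of the inducible genes, with medians of -0.10 for the endoplasmic reticulum (0 of 24 set apart) and -0.36 for mitochondria (1 of 15 lower, the protease spg-7 at -1.17 ± 0.11).

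The inducible genes were also higher in low than in high libraries. High against low stood at -1.85 for hsp-16.2, -2.28 for hsp-16.48 and -2.67 for F44E5.4 (adjusted p = 0.000152, 8.45e-06 and 1.05e-06, edgeR quasi-likelihood). The levels of hsp-16.2 in the other strains ran from 7.41 to 75.6 CPM with a median of 26.3 (on the scale of all 34 libraries). The low libraries of sorts 1 and 2 were thus above, and the high libraries of sorts 4, 5 and 6 below, every library of the other strains.

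Other large positive differences belonged to genes whose role is not given here. C06B3.7, T24A6.7, F19B10.13, C49G7.7, F43C1.7 and K09F6.13 stood between 2.19 and 2.402. K09F6.13 held 15.9 and 10.9 CPM in the high libraries of sorts 1 and 2 against 2.37 to 6.25 CPM, and 220 and 148 CPM in the low libraries against 29.3 to 33.1 CPM. All 6 were past adjusted p 0.05 for high against low, and all were lower in high (-3.76 to -1.78, edgeR quasi-likelihood).

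F-box, MATH and BTB genes, many of which encode adaptors of ubiquitin ligases, formed the largest list. Of 332 tested, 41 were set apart as higher and none as lower, and the median was 0.56. Not overlapping were 82 that were higher and 15 that were lower, beside 15.2% and 17.3% of all genes. The share set apart as higher was 12.35%, against 7.10% of all genes. The F-box gene fbxc-58 held 26.7 and 23.7 CPM in the high libraries of sorts 1 and 2 against 4.46, 5.17, 8.02 and 5.32 CPM. When low, it held 93.9 and 96.9 CPM against 22.6, 24.2, 21.2 and 23.9 CPM, a difference of 2.09 ± 0.13. The genes fbxa-50, fbxa-79 and fbxa-69 stood at 2.08 ± 0.34, 2.01 ± 0.19 and 1.98 ± 0.36.

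Genes of the intracellular pathogen response, a programme induced by microsporidia and the Orsay virus, had a median of 0.61, with 3 of 35 set apart as higher (8.57%, near the 7.10% of all genes). They were the cullin gene cul-6 (1.33 ± 0.15), pals-25 (1.05 ± 0.14), a regulator of the response, and skr-3 (1.04 ± 0.14), an adaptor of the ubiquitin ligase that CUL-6 builds.

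Detoxification genes followed. Of 91 glucuronosyltransferase and glutathione transferase genes, which attach sugar acid or glutathione to foreign compounds, 17 were set apart as higher and none as lower. The share set apart as higher was 18.7%, against 7.10% of all genes, and the median was 0.81. Most genes of the list were low in abundance. For ugt-13 the high libraries held 2.13 and 2.77 CPM against 0.122 to 1.33 CPM and the low libraries 8.36 and 3.36 CPM against 0.853 to 2.56 CPM. A value of 3 counts corresponds to 0.124 to 0.190 CPM in these libraries, before scaling. The differences were 1.84 ± 0.31 for gst-9, 1.80 ± 0.53 for ugt-36, 1.78 ± 0.42 for ugt-21 and 1.73 ± 0.41 for ugt-13. Of 55 cytochrome P450 genes 3 were higher (5.45%, below the 7.10% of all genes) and 1 lower, with a median of 0.59, and cyp-14A5 was 1.195 ± 0.17 higher. The near-identical metal-responsive genes numr-1 and numr-2 stood at 1.596 ± 0.12 and 1.601 ± 0.12. In the oxidative stress list, 3 of 20 were set apart as higher (15%, against 7.10% of all genes) at a median of 0.03. Among them was the superoxide dismutase gene sod-3 (1.52 ± 0.45).

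Of the secreted transthyretin-related family 5 of 47 were higher (10.6%, against 7.10% of all genes) at a median of 0.68. The largest differences were those of ttr-37 (1.49 ± 0.21) and ttr-34 (1.45 ± 0.09). Histone genes had 6 of 78 higher (7.69%, near the share of all genes) at a median of 0.50, the near-identical his-30 and his-33 among them, with the linker histone gene hil-7 at 1.48 ± 0.13. The cuticle collagens had 5 of 92 higher (5.43%) at a median of 0.29. Neuropeptide genes had 0 of 87 set apart and a median of 0.23.

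Ribosomal protein genes had 5 of 79 set apart as lower (6.33%, against 3.07% of all genes), none higher, at a median of -0.34. The subunit gene rpl-4 held 1079 and 793 CPM in the high libraries of sorts 1 and 2 against 1690 to 2209 CPM, and 842 and 634 CPM in the low libraries against 1331 to 2062 CPM. On library totals the median of this list was -0.0011, against 0.51 over all genes. Its distance from 0 thus rests on the scaling, while its median was below that of all genes under both. As a share of all counts, the genes took 7.86% and 7.29% in the high libraries of sorts 1 and 2 against 5.89% to 6.63%, and 4.92% and 4.59% in the low ones against 4.79% to 6.81%.

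The insulin signalling genes daf-2, which encodes the insulin receptor, age-1, its PI3 kinase, and daf-16, the FOXO factor that the pathway restrains, stood at -1.21 ± 0.18, -1.11 ± 0.10 and -1.003 ± 0.10. The gene daf-16 held 72.1 and 78.4 CPM in the high and 86.6 and 93.2 CPM in the low libraries of sorts 1 and 2 against 138 to 190 CPM in all 8 of sorts 3-6. All 3 are long genes. With the trend on transcript length described below taken out, daf-2, age-1 and daf-16 stood at -0.35, -0.61 and -0.54. None of the 3 was then set apart. Over the 21 genes of the DAF-16 list the median was -0.12, with 3 lower (14.3%, against 3.07% of all genes) and 1 higher, sod-3. In the list of microRNA pathway and heterochronic genes, lin-41 and the exportin gene xpo-3 (-1.07 ± 0.09) were set apart of 16. Exons of age-1, daf-16 and xpo-3, like those of chs-1, pole-1, prg-1, sip-1, hsp-90 and sod-3 above, overlap other annotated genes. The lin-4 targets lin-14 (-0.19 ± 0.25) and lin-28 (-0.03 ± 0.16) overlapped between the sets.

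**Figure D3:**
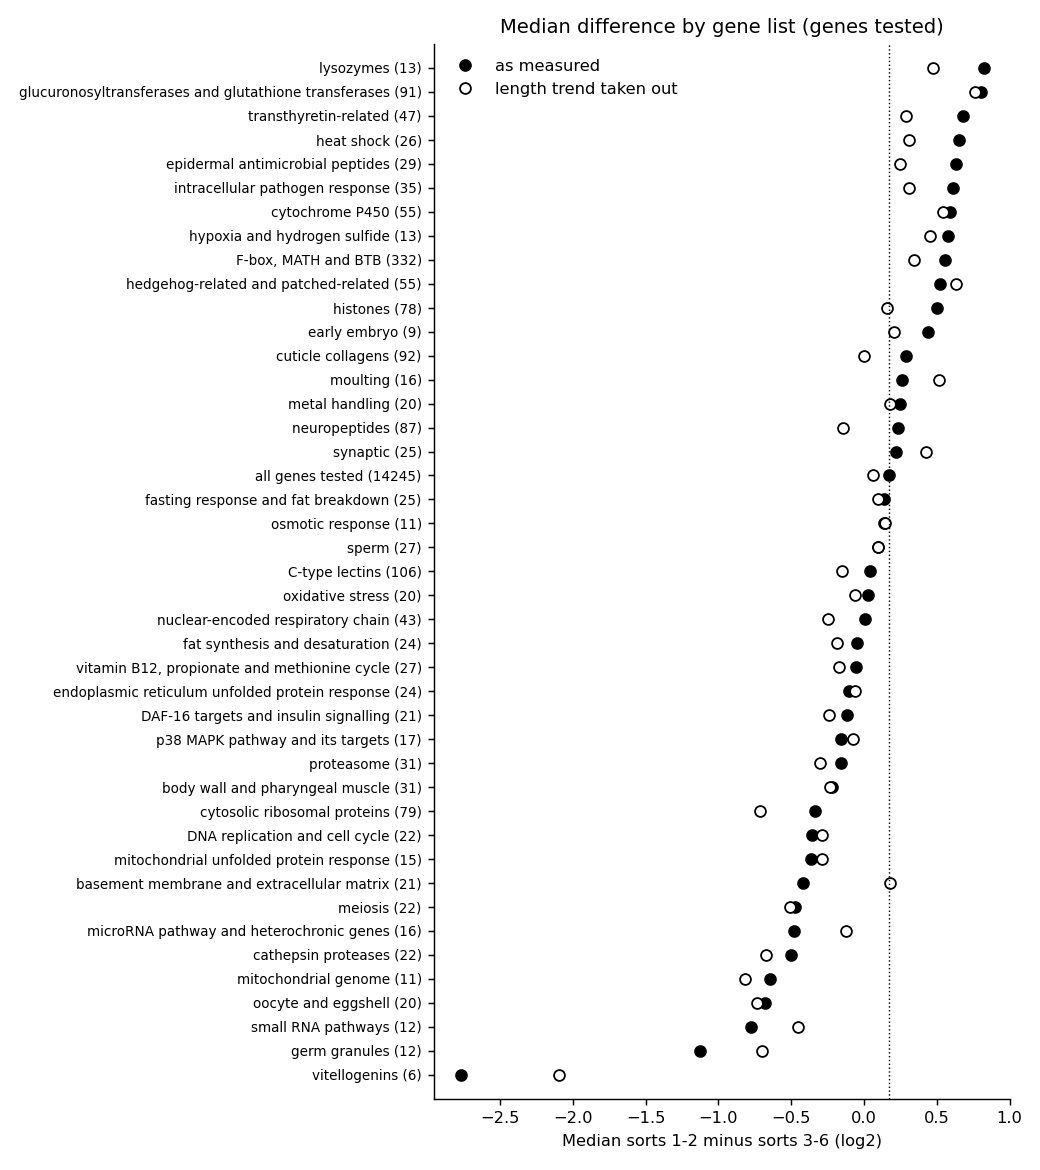
Median difference (log2, sorts 1-2 minus sorts 3-6) of each gene list, with the number of genes tested in brackets. Filled points are the values as measured, open points those after a trend on transcript length was taken out of each library, and the dotted line is the median of all genes, 0.17. Vitellogenins are lowest at -2.77 and remain lowest, at -2.09, without the length trend.

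Several of the largest negative differences were in genes for giant proteins. The gene anc-1 (chromosome I, 4318033 to 4359092), which encodes the KASH protein that anchors nuclei, held 591 and 406 CPM in the high libraries of sorts 1 and 2 against 4090, 3399, 3075 and 2700 CPM. When low, it held 3325 and 1583 CPM against 9663, 6408, 7884 and 6294 CPM, a difference of -2.14 ± 0.29. The extracellular matrix gene dig-1 stood at -2.29 ± 0.31 and the twitchin gene unc-22 at -2.06 ± 0.27, and C25H3.11 at -2.04 ± 0.20. Among set-apart genes with at least 5 CPM, the largest negative differences were those of T22F3.11 (-4.20 ± 0.89) and srap-1 (-3.30 ± 0.27). For srap-1 the 4 libraries of sorts 1-2 held 23.1 to 69.99 CPM, and the 8 of sorts 3-6 held 249 to 559 CPM with a median of 387. T22F3.11 varied widely within sorts 3-6, from 2.12 to 71.5 CPM, and held 0.409 to 1.75 CPM in sorts 1-2.

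Transcript length moved with the sort set. The median difference was 0.44 for genes with up to 500 bases of exon (n = 978), 0.22 above 1000 and up to 2000 bases (n = 6222), -0.69 above 4000 and up to 8000 bases (n = 655) and -0.87 above 8000 bases (n = 97). Of the genes above 8000 bases 43.3% were set apart as lower and none as higher. Across 14194 genes with an exonic length, Spearman's rho of the difference with length was -0.41, -0.48 in the high libraries alone and -0.28 in the low. The points share libraries and differ in abundance, so these are descriptions. The difference was also lower at higher abundance (rho = -0.59 with the mean CPM of the same libraries), from a median of 0.64 below 1 CPM to -0.53 above 300 CPM.

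The same was seen in single libraries. An index of long genes, the median deviation of genes of at least 5000 bases from their mean over the 34 libraries minus that of genes under 1000 bases, was -1.27 and -1.42 in the high libraries of sorts 1 and 2. It was -0.18 to 0.45 in the high libraries of sorts 3-6. In the low libraries it was -0.25 and -0.46 against 0.39 to 0.79. In the other strains it ran from -0.62 to 0.77, so the high libraries of sorts 1 and 2 stood below all others of the series.

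**Figure D4:**
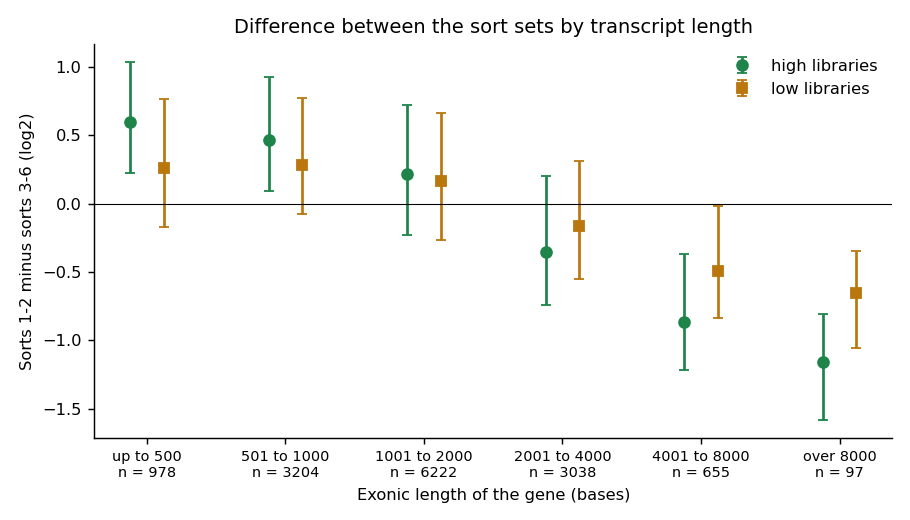
Difference between the sort sets (log2, sorts 1-2 minus sorts 3-6) by exonic length, fitted in the high libraries alone (circles) and in the low libraries alone (squares). Points are medians and bars the quartiles over genes. The high medians go from 0.60 at up to 500 bases to -1.16 above 8000 bases, and the low medians from 0.26 to -0.66.

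With a smooth trend on length taken out of each library, an alternative added after the data were seen, 681 genes (4.78%) were set apart as higher and 210 (1.47%) as lower. The vitellogenins remained at a median of -2.09 with 5 of 6 set apart. Oocyte and eggshell genes stood at -0.73 (5 of 20 lower), germ granule genes at -0.70 (3 of 12 lower), and the heat shock list at 0.31 (9 of 26 higher, 1 lower). Ribosomal protein genes, which are short, moved to -0.71 (14 of 79 lower). The long genes moved most, with anc-1 at -0.79, unc-22 at -0.65, and the titin gene ttn-1, -1.41 ± 0.24 as measured, at 0.38. In the glucuronosyltransferase and glutathione transferase list the median was 0.76, and 11 of 91 were higher where 17 had been. F-box, MATH and BTB genes went from 41 to 24 higher, with 1 lower. No gene remained set apart in the meiotic (3 before), oxidative stress (3 before) or DNA replication list (1 before). Histones, transthyretin-related genes and collagens each had 2 higher, and the intracellular pathogen response had 1. The basement membrane list changed sign, from -0.42 to 0.18.

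Libraries of sorts 1-2 also detected more features. At least 5 counts were found for 15746 to 16657 features in sorts 1-2 and for 13668 to 15096 in sorts 3-6, without overlap, against 14385 to 16425 in the other strains. The 10 largest genes took 3.08% to 5.76% of the counts in sorts 1-2 and 6.22% to 12.9% in sorts 3-6. The mitochondrial share overlapped, with 0.657% to 1.55% against 0.652% to 1.69%. Composition and depth limit what low genes can show, and the part of either in the differences was not tested.

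Fluorescence level was independent of the choice of the sort sets and could be tested. With the sort set as a term, 6987 genes (49% of 14245) were past adjusted p 0.05 for high against low, 3264 higher and 3723 lower in high (edgeR quasi-likelihood, Benjamini-Hochberg). At the threshold of the study, 0.0001, 1213 were, and 749 with the sort as a block for the pairing of high and low libraries. Without the term 4680 passed at 0.05 and 281 at 0.0001, and 4678 of the 4680 were among the 6987. The square root of the common dispersion was 0.240 with and 0.339 without the term. Within sorts 1-2 alone, 2 libraries against 2, 6196 genes passed at 0.05, and within sorts 3-6, 4 against 4, 3803 did. At 0.0001 the order was the other way, with 0 genes in sorts 1-2 (7681 at an unadjusted p under 0.05, edgeR quasi-likelihood) and 327 in sorts 3-6.

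The set-apart genes, which were chosen on these same 12 libraries, were unevenly divided by this test, which is given as a description. The shares of all genes below are not matched for abundance. The 1012 genes had a median of 2.69 CPM against 15.01 over all genes. In the other strains the median long minus short difference was -0.32 for genes below 1 CPM and 0.02 over all genes. The part of abundance in the shares was not tested. Of the 1012 genes higher in sorts 1-2, 539 (53.3%) were lower in high and 70 (6.92%) higher, against 26.1% and 22.9% of all genes. In the 22 libraries of the other strains, which share no library with the comparison of the sets, 688 of the 1012 (68%) were lower in predicted long-lived animals and 99 (9.78%) higher, against 34% and 37.8% of all genes. The 437 lower genes divided the other way, with 250 (57.2%) higher in predicted long-lived libraries and 68 (15.6%) lower. Across 14245 genes the difference between the sets and the long minus short difference of the other strains had Pearson's r = -0.326 (Spearman's rho = -0.334), which is a description across genes that share abundance and length. For the difference in low libraries alone, r was -0.496, and for that in high libraries alone -0.0926. The high and low differences had r = 0.601 with each other.

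The gfp transgene was examined as a check of the labels. It held 1639 and 1756 CPM in the high libraries of sorts 1 and 2, and 630, 470, 958 and 1356 CPM in those of sorts 3 to 6. In the low libraries it held 342 and 181.7 CPM in sorts 1 and 2 and 188, 329, 384 and 368 CPM in sorts 3 to 6. High exceeded low in each of the 6 sorts. The log2 ratio of high to low was 2.26 and 3.27 in sorts 1 and 2 and 1.74, 0.52, 1.32 and 1.88 in sorts 3 to 6. The mean of 2.77 in sorts 1-2 exceeded that of 1.37 ± 0.61 (SD, n = 4) in sorts 3-6 by 1.40, which is given without a test because the sets were chosen on these libraries. Without sort 2 the difference was 0.895, and without sort 1 it was 1.91.

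How the difference between high and low varied with the sort set was fitted as an interaction. The division was chosen on the same libraries, and on its component the high libraries of sorts 1-2 (-45.0 and -43.7) stood farther out than the low ones (-23.6 and -14.8), so the p-values of this fit are no independent test. Past adjusted p 0.05 were 6 genes (0.0421% of 14245), 1 with a more positive and 5 with a more negative difference in sorts 1-2, none at 0.0001, and 2179 had an unadjusted p under 0.05 (edgeR quasi-likelihood). With the sort as a block, since the high and low libraries of a number come from the same sort, 597 genes (4.19%) passed, 475 of them negative. The 6 genes were also past 0.05 in the blocked fit, with adjusted p = 0.0186 to 0.0307. Without the high library of sort 2, or without the low one, no gene passed in the unblocked fit, and without the low library of sort 1, 73 did. With the length trend taken out, only col-95 passed.

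The collagen gene col-95 held 250.0 and 320 CPM in the high libraries of sorts 1 and 2 and 153, 74.5, 76.7 and 86.4 CPM in those of sorts 3 to 6. When low, it held 24.5 and 21.7 CPM against 66.8, 111, 70.6 and 79.9 CPM. High exceeded low by 3.63 in sorts 1-2 and by 0.25 in sorts 3-6, an interaction of 3.38 ± 0.40 (adjusted p = 0.0157, edgeR quasi-likelihood). In the other strains its level ran from 36.3 to 106 CPM, and all 4 libraries of sorts 1 and 2 were outside that range, as were the high library of sort 3 and the low library of sort 4. Its adjusted p was 0.1221 without the high library of sort 2.

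The transcription factor gene skn-1, which encodes the Nrf factor that controls detoxification genes, was lowest in the high libraries of sorts 1 and 2. Those held 125 and 129 CPM against 212 to 240 CPM in the high libraries of sorts 3-6, while the low libraries held 255 and 252 CPM against 243 to 258 CPM. The interaction was -0.87 ± 0.13 (adjusted p = 0.0439, edgeR quasi-likelihood), and without the high library of sort 2 the adjusted p was 0.320. The gene nhl-2, an RNA-binding cofactor of microRNA repression that the naming rule did not cover and that was added after its values were seen, held 95.3 and 103 CPM when high and 202 and 217 CPM when low in sorts 1 and 2. In sorts 3-6 it held 233 to 260 CPM when high and 270 to 300.1 CPM when low, an interaction of -0.90 ± 0.14. The plexin gene plx-1, a semaphorin receptor, stood at -1.06 ± 0.16, K10C3.4 at -1.03 ± 0.13 and F28C10.3 at -1.52 ± 0.23. With 6557 and 4724 bases of exon, plx-1 and nhl-2 are long genes, skn-1 has 2960 bases, and with the length trend removed the adjusted p of these 5 genes was 0.198 to 0.279. The genes skn-1, plx-1 and K10C3.4 overlap other annotated exons.

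**Figure D5:**
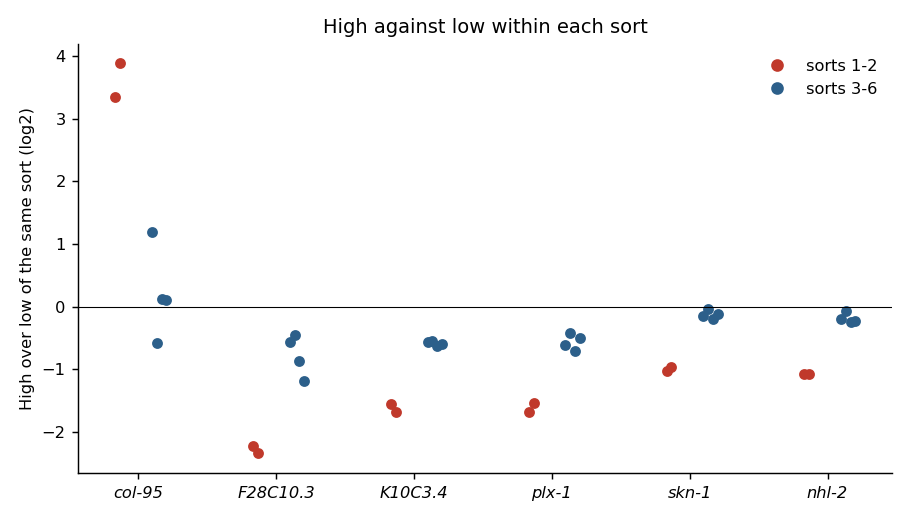
Log2 ratio of high to low CPM within each of the 6 sorts for the 6 genes past adjusted p 0.05 in the interaction fit. That fit picked the genes on the same libraries and is no independent test. Red points are sorts 1 and 2, blue points sorts 3 to 6. In col-95 the ratios are 3.35 and 3.88 in sorts 1 and 2 and -0.58 to 1.196 in sorts 3 to 6, and in the other 5 genes sorts 1 and 2 lie below sorts 3 to 6.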

How the data were processed

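The authors deposited raw read counts for 20223 features in 34 libraries. RNA was freed with TRIzol and freeze-thaw cycles, cleaned on columns with DNase, enriched with oligo(dT), depleted of ribosomal RNA and primed with random hexamers. Per the submitters' processing notes, STAR 2.7.3a, featureCounts and build WBcel235 were used. The annotation version, strand setting and treatment of multi-mapping reads are not given in the sources used here. Lengths, positions and overlaps came from the Ensembl WBcel235 annotation, which holds 20052 of the identifiers.

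The members, lists and rules were chosen with earlier results of these data known. Genes with at least 5 counts in 75% of libraries were kept. Fits used edgeR 4.0.16 (R 4.3.3) with TMM factors, quasi-likelihood F-tests and Benjamini-Hochberg adjustment at 0.05. Log2 CPM used a prior count of 2. Principal components used variance-stabilised counts (DESeq2 1.42.0). The fits were tested on simulated data. Named genes were the 12 largest set-apart differences in each direction at a mean of at least 5 CPM, up to 4 set-apart members of each list and any member called in the interaction, the 5 smallest interaction p-values, gfp and spe-9.

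High and low libraries of one number came from the same sort and so are paired. Their deviations from the group means correlated across genes with r = 0.0545 to 0.572, which includes the difference between the sets. For deviations within a set r was -0.0759 to 0.282. Counts of replicate libraries differed beyond counting noise (chi-square per degree of freedom 10.9 to 61.9 over 14 pairs). Floors cover counting error only. Standard errors and p-values come from the quasi-likelihood fits and include the spread between libraries. Unless the sort was a block, those fits count the high and low library of one sort as separate. Alternatives covered scaling, filters, prior count, size of difference, all 34 libraries, single sorts, single levels, leaving out each library, DESeq2 and the block. Neither a sequence nor a promoter motif was analysed here.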

Additional observations from a re-analysis of the deposited data

Results flagged for a closer look

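In 76 groups of 6 libraries examined, 4 held a library far from the rest. Each group holds libraries of both sort sets, and the flagged genes were named for their difference between the sets. The rate of about 1 group in 20 flagged by chance therefore does not apply to them. C06B3.7 stood at 24.3 CPM in the high library of sort 1, with 8.92 CPM as the next highest high library. The near-identical genes hsp-16.1 and hsp-16.11 both stood at 54.2 and 54.1 CPM in the high library of sort 2. T22F3.11 reached 30.1 CPM in the low library of sort 5, against 7.04 CPM in the next highest low library.

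The difference between high and low passed the fitted interaction with the sort set in 6 genes (edgeR quasi-likelihood, adjusted p = 0.0157 to 0.0439), which is no independent test because the sets were chosen on these libraries. The values, sorts 1-2 minus sorts 3-6, were 3.38 for col-95, -1.52 for F28C10.3, -1.06 for plx-1, -1.03 for K10C3.4, -0.90 for nhl-2 and -0.87 for skn-1. In each of the 6 genes both ratios of sorts 1 and 2 lay outside the 4 ratios of sorts 3 to 6. Since the fit picked these genes on the same libraries, that adds no support to it.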

How the results depend on the processing

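The 1449 set-apart genes (1012 higher, 437 lower) became 2368 (2267 and 101) on library totals, 78 (63 and 15) at a difference of at least 2, and 891 with the length trend removed (681 and 210). High libraries alone gave 2477 (1744 and 733), and low libraries alone 2090, of which 684 were lower. Leaving out each library gave 1391 to 1711 (986 to 1247 higher, 367 to 523 lower). The difference of ttn-1 turned to 0.38 with the length trend removed. The median SD between sorts of the other strains for the lower genes was 0.848 at a difference of at least 2.

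High against low gave 1213 genes at 0.0001 and 3803 within sorts 3-6 alone, and 5957 to 6982 when each library was left out. The 6 interaction genes became 1 with DESeq2 size factors, with either other filter and with the length trend removed. They became 382 in the fit of all 34 libraries and 308 with the DESeq2 test. At 0.0001 the main fit had 0 and the DESeq2 test 4. With the sort as a block for the pairing 597 passed, and the count for high against low was 7317. Leaving out each library gave 0 to 73. Leaving out each sort, the gfp ratio differed by 0.895 to 1.91 and the library total by 0.0776 to 3.98 M. The correlation with the long minus short difference was -0.390 to -0.236 when each library was left out. The causes of these shifts were not tested. Motif searches were not run, because no promoter table was used here.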

Other observations

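The difference between the sort sets varied by chromosome. Its median was 0.31 over 2053 genes of the X chromosome and 0.30 over 2774 genes of chromosome V, against 0.02 over 2274 genes of chromosome I and 0.06 over 2275 of chromosome III. Set apart as higher were 6.87% of the X genes and 9.63% of those of chromosome V, against 7.10% of all genes. With the length trend removed the medians were 0.26, 0.17, -0.08 and -0.07 in the same order. The chromosomes were not matched for abundance. The 11 mitochondrial genes tested had a median of -0.65, none of them set apart. Pseudogenes had a median of 0.47 over 124 tested, and pseudogenes and non-coding RNAs together took 0.136% to 0.222% of the counts in sorts 1-2 and 0.0653% to 0.168% in sorts 3-6.

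Lysozymes had the highest median of all lists, 0.82. Of 13, 1 was set apart as higher (7.69%, near the 7.10% of all genes), ilys-4 at 1.00 ± 0.25. Of 106 C-type lectin genes, 5 (4.72%) were set apart as higher and 4 (3.77%) as lower, at a median of 0.04. Over all genes the shares were 7.10% and 3.07%. The most lowered lectin gene was clec-71 (-1.84 ± 0.29). Cathepsin protease genes had a median of -0.50. Only asp-6 (-1.13 ± 0.25) of 22 was set apart as lower (4.55%, against 3.07% of all genes). In the moulting list, mlt-9 stood at 1.33 ± 0.30 and the nuclear receptor gene nhr-23 at -1.101 ± 0.12. Of the 5977 features that the filter on low counts left out, none had at least 10 counts in all 4 libraries of one set and under 5 in all 8 of the other. All untested features, the gfp transgene included, took 0.169% to 0.349% of the counts in sorts 1-2 and 0.0790% to 0.206% in sorts 3-6. These shares move with gfp and are not those of the low-count features alone.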
